A study of Mus musculus with 43 samples.

Results

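The vomeronasal receptor genes of mouse chromosome 7 are the 154 protein-coding genes of that chromosome in the GENCODE M21 annotation (GRCm38.p6, the same assembly as mm10) whose symbols start with Vmn1r or Vmn2r. They comprise 103 Vmn1r and 51 Vmn2r genes among the 2023 protein-coding genes of the chromosome. The 86 pseudogenes with such symbols (39 Vmn1r and 47 Vmn2r) were left out. The rule uses symbol and position alone. They lie in 10 clusters, where genes at most 500 kb apart were joined, and the clusters span 12.9 Mb, or 9.03% of the sequenced bases of the chromosome.

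Chromatin was taken from mouse embryonic fibroblasts (MEFs) of E13.5 embryos, from 129/C57 dams and CAST sires per the labels (129/CAST F1 in the text of the study), and all cells had been transduced with a hairpin retrovirus and selected with puromycin. Female cells were Setdb1+/+ Xist∆A/+ with a non-silencing hairpin, Setdb1-depleted cells were female Setdb1+/gt Xist∆A/+ with a hairpin against Setdb1, and male cells were Setdb1+/+ X/Y with the non-silencing hairpin. Setdb1gt is a gene trap allele, so the depleted cells differ from the female cells both in an allele and in a hairpin, and the share of each in a difference cannot be told apart. Xist∆A, an allele carried by both female groups, makes the CAST X chromosome the inactive one. For each target and kind of cell there is 1 list of peaks, called on the pool of 3 female, 2 Setdb1-depleted or 3 male libraries, so that 12 lists cover H3K9me3, H3K9me2, H3K27me3 and Setdb1. Since a list is 1 pooled value, differences between lists could not be set against a spread between replicates, and no test was run. RNA was not measured in these samples, and fibroblasts are not the tissue in which the receptors act. The hairpin of the Setdb1-depleted Setdb1 list is uncertain, because its header names the non-silencing hairpin and the labels the one against Setdb1.

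Vomeronasal receptors are 7-transmembrane proteins with which neurons of the vomeronasal organ, a sensory organ at the base of the nasal septum, detect pheromones. V1R receptors, encoded by Vmn1r genes with an intronless coding region, signal through the G protein subunit Gnai2 in apical neurons and mostly bind small molecules. V2R receptors, encoded by Vmn2r genes with several coding exons and a large extracellular domain, signal through Gnao1 in basal neurons and bind peptides and proteins. A vomeronasal neuron uses only 1 or a few of these genes, and fibroblasts are not known to use them. Both families grew by tandem duplication, so that many members are near copies of their neighbours. H3K9me3 is a mark of constitutive heterochromatin that Setdb1, among other enzymes, lays down, H3K9me2 is found in broad silent domains, and H3K27me3 is the mark of Polycomb repression.

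The sequences that bear most on the results are those of near-identical promoters and of the Setdb1 peaks over receptor genes. The first pair below was taken from the identical promoters among Vmn2r genes with at least 50% of their length under H3K9me3 in all 3 kinds of cells. The second was taken from those among Vmn1r genes with no peak in any list. Other pairs are equally alike, such as Vmn2r31 with Vmn2r33 and Vmn1r93 with Vmn1r126. Promoters are from RefSeq on GRCm38.p6, 250 bases before to 50 bases after the gene start, 5′ to 3′ on the strand of the gene. In both printed pairs the sequences are identical over all 300 bases, so each is printed once. Vmn2r34 (chr7:7689349-7689648, minus strand) shares its sequence with Vmn2r45 (chr7:8488910-8489209, minus strand), and Vmn1r95 (chr7:20193460-20193759, plus strand) with Vmn1r143 (chr7:22189127-22189426, plus strand). The last 3 sequences are Setdb1 peaks on the plus strand of mm10, from male cells within Vmn1r69 (chr7:10582425-10582568) and Vmn2r72 (chr7:85750076-85750217), and from female cells between Vmn2r genes near Vmn2r34 (chr7:7626701-7626832). Capitals mark CG dinucleotides, the main site of DNA methylation in mammals.
Vmn2r34 and Vmn2r45 promoters: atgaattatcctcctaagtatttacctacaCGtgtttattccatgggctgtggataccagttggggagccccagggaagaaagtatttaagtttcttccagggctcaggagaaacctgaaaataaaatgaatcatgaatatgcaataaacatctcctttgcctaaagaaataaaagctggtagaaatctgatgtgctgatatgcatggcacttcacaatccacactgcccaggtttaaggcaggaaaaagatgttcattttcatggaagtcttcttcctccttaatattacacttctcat
Vmn1r95 and Vmn1r143 promoters: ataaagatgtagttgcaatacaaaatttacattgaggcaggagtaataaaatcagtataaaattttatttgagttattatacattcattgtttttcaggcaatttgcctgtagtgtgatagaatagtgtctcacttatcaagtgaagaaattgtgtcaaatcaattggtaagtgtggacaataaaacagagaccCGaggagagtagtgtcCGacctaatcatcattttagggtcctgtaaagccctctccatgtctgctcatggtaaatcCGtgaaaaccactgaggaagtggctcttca
Setdb1 peak in Vmn1r69: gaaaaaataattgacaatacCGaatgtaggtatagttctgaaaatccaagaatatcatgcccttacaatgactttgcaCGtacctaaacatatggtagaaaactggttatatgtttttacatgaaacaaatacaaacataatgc
Setdb1 peak in Vmn2r72: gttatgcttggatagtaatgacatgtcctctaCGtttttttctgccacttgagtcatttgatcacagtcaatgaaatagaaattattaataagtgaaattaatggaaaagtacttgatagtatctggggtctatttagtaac
Setdb1 peak near Vmn2r34: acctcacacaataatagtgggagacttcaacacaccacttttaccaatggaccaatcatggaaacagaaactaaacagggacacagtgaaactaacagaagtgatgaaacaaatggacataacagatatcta
The Vmn2r34 promoter holds 1 CG and the Vmn1r95 promoter 3. Of the 94 Vmn1r and 47 Vmn2r genes with a promoter in the RefSeq table, the median number of CG dinucleotides in the 300 bases was 2 and 1, against 10 for the 1510 other chromosome 7 genes with a promoter there. No CG was present in 13 Vmn1r promoters (13.8%) and 9 Vmn2r promoters (19.1%), compared with 8.08% for those 1510 genes and 5.78% of the 27025 promoters of the table. Few CG dinucleotides are not particular to these families. The 208 olfactory receptor (Olfr) promoters of chromosome 7 had a median of 1 CG, and 33.7% had none. The closest promoter of the same family was at least 95% identical for 52 of the 94 Vmn1r and 19 of the 47 Vmn2r promoters.

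H3K9me3 was the mark that covered both families. Of the summed length of the Vmn1r genes, 18.7% lay under H3K9me3 peaks in female cells, with 21.4% in Setdb1-depleted and 23.2% in male cells. For the Vmn2r genes these covered shares were 38.5%, 35.9% and 23.8%. The other 1869 protein-coding genes of chromosome 7 had 3.13%, 2.53% and 3.18%, so the Vmn1r share was 5.98, 8.47 and 7.3 times theirs and the Vmn2r share 12.3, 14.2 and 7.49 times. Both families were thus above the rest of the chromosome in all 3 lists and the Vmn2r share was above the Vmn1r share in female and Setdb1-depleted cells. In male cells the order depended on the setting, since with peaks of at least 20 kb alone the Vmn1r share was 18.1% and the Vmn2r share 17%, and over genes with at least 50% unique sequence they were 26.1% and 22.3%.

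Counted by gene, 15 Vmn1r genes (14.6%) and 22 Vmn2r genes (43.1%) had at least 50% of their length under H3K9me3 in female cells, beside 5.59% of all 2023 protein-coding genes of chromosome 7. In Setdb1-depleted cells there were 17 Vmn1r (16.5%) and 21 Vmn2r genes (41.2%), beside 4.94%. In male cells there were 16 (15.5%) and 13 (25.5%), beside 4.05%. The median covered share of a Vmn1r gene was 0% in every list, whereas that of a Vmn2r gene was 34.8%, 23.7% and 0% in the female, depleted and male lists. Over the other genes of the chromosome the median was 0% in all 3. Annotated start sites followed the gene bodies, with 17, 13 and 15 of the 103 Vmn1r starts and 23, 18 and 14 of the 51 Vmn2r starts within an H3K9me3 peak in the 3 lists, beside 3.8%, 3.32% and 3.21% of the other genes' starts. At least 1 peak of any target in any list touched 35 Vmn1r genes (34%) and 40 Vmn2r genes (78.4%), beside 41.9% of all chromosome 7 genes. The other 68 Vmn1r and 11 Vmn2r genes had no peak.

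**Figure D1:**
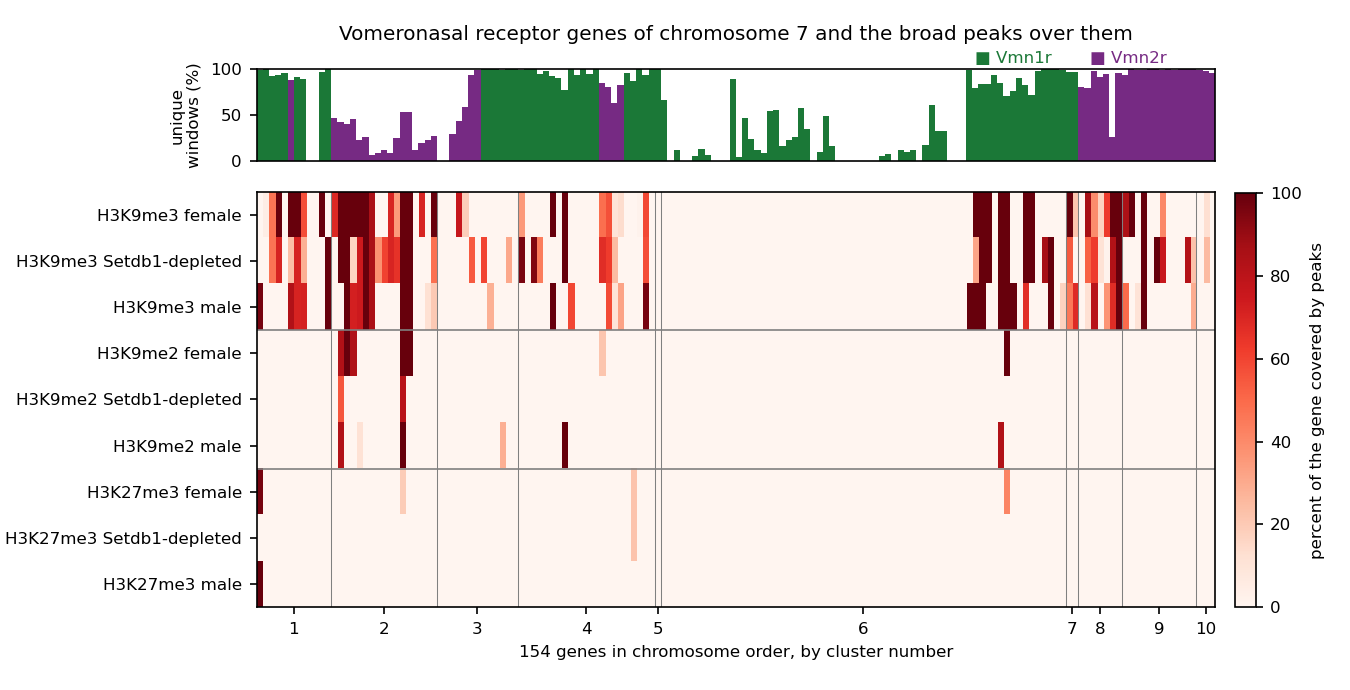
Percent of each gene covered by the broad peaks of 9 histone lists (colour, 0 to 100%) for the 154 genes in chromosome order, with vertical lines between the 10 clusters; the bars above give the percent of 100-base windows of each gene found once in the genome, green for Vmn1r and purple for Vmn2r. The H3K9me3 rows are the fullest, and a run of 51 Vmn1r genes from the end of cluster 4 into cluster 6 has no colour in any list.

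Of the 5 Vmn1r genes with the most H3K9me3, 4 lay within the last part of cluster 6. Vmn1r173 (chr7:23700703-23711009, plus strand), Vmn1r172 (chr7:23658316-23668447, plus strand) and Vmn1r169 (chr7:23575526-23578849, plus strand) were covered by 100% in all 3 kinds of cells. Vmn1r172 and Vmn1r173 shared 1 peak of 75 kb, which had the same ends in the 3 lists (chr7:23645001-23720000). Vmn1r176 was covered by 100%, 100% and 67.1% in the female, depleted and male lists, and Vmn1r60 of cluster 1 by 100%, 70.9% and 70.9%. In all, 6 Vmn1r genes reached 50% in all 3 lists (Vmn1r60, Vmn1r88, Vmn1r169, Vmn1r172, Vmn1r173 and Vmn1r176), 10 in 2 lists and 10 in 1 list, which is 5.83%, 9.71% and 9.71% of the family beside 1.43%, 2.62% and 5.04% of all chromosome 7 genes.

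Among the Vmn2r genes, Vmn2r63, Vmn2r31, Vmn2r45, Vmn2r34, Vmn2r44 and Vmn2r68 were covered by 100% in each of the 3 lists. Of the family, 10 genes (19.6%) reached 50% in all 3 lists, 6 (11.8%) in 2 and 14 (27.5%) in 1. Over all chromosome 7 genes these shares were 1.43%, 2.62% and 5.04%. Vmn2r44 (chr7:8366164-8383333, minus strand) and Vmn2r45 (chr7:8469563-8489075, minus strand) lay in the widest H3K9me3 peak of any cluster, 290 kb in female cells and 235 kb in both Setdb1-depleted and male cells. Vmn2r34 (chr7:7670804-7689513, minus strand) and its neighbour Vmn2r35 shared a peak of 145 kb after Setdb1 depletion and of 120 kb in male cells. Vmn2r63 (chr7:42896711-42933822, minus strand), the last gene of cluster 8, lay in peaks of 150, 105 and 90 kb. These domains are far wider than the genes in them, which have a median length of 24.7 kb for Vmn2r and 3.03 kb for Vmn1r.

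**Figure D2:**
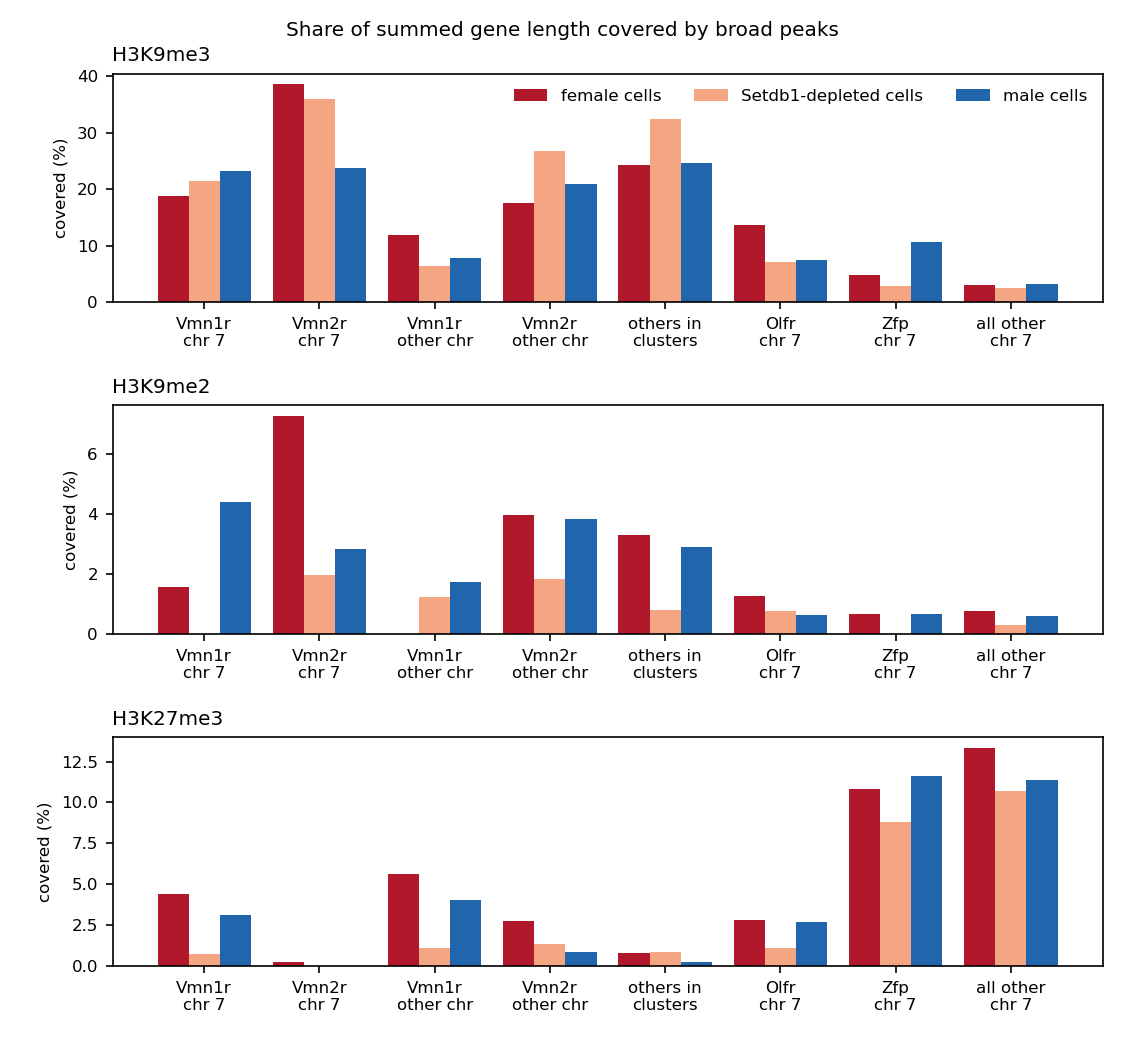
Percent of the summed gene length covered by H3K9me3, H3K9me2 and H3K27me3 peaks (1 panel each, with its own axis from 0) in the female, depleted and male lists, for the receptor families of chromosome 7 and of other autosomes, the other genes inside the clusters, olfactory receptor (Olfr) and zinc finger (Zfp) genes and all other genes of chromosome 7. The Vmn2r genes of chromosome 7 have the highest H3K9me3 bars of female and Setdb1-depleted cells (38.5% and 35.9%) and nearly no H3K27me3.

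H3K9me2 was scarcer, and in female cells it lay mainly on Vmn2r genes that also carried H3K9me3. It covered 7.27%, 1.98% and 2.86% of Vmn2r length in the female, depleted and male lists, compared with 0.785%, 0.314% and 0.61% for the other genes of the chromosome. For Vmn1r genes the shares were 1.58%, 0% and 4.4%. At least 50% of the gene was covered in 1 Vmn1r (0.971%) and 5 Vmn2r genes (9.8%) in female cells, beside 0.741% of all chromosome 7 genes. In Setdb1-depleted cells there were 0 (0%) and 2 (3.92%), beside 0.297%. In male cells there were 2 Vmn1r (1.94%) and 2 Vmn2r genes (3.92%), beside 0.544%. Vmn2r44 was the gene with the most H3K9me2, at 100%, 80.6% and 100%, and Vmn2r30 had 83.2%, 55.2% and 83.2%. Vmn2r31, Vmn2r32 and Vmn2r45 reached 50% in female cells alone, where all 6 Vmn2r genes touched by H3K9me2 were also touched by H3K9me3. In male cells 2 of 3 were, the exception being Vmn2r30, whose H3K9me3 share there was 0% after 100% in both other lists. Vmn1r173 was covered by 100% in female cells only, Vmn1r172 by 83.4% in male cells only, and Vmn1r79 by 100% in male cells only, where its H3K9me3 share was 0% after 100% in both other lists.

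H3K27me3 was nearly absent from the receptor genes. The covered share of Vmn1r length was 4.43% in female, 0.754% after Setdb1 depletion and 3.12% in male cells, and that of Vmn2r length 0.229%, 0% and 0%, whereas the other genes of chromosome 7 had 13.3%, 10.7% and 11.4%. At least 50% coverage was met by 1 Vmn1r gene in female cells (beside 13.0% of all genes), none in the depleted list (11.2%) and 1 in male cells (11.6%), and by 0 Vmn2r genes in each. That gene was Vmn1r55 (chr7:5129291-5149670, minus strand), the first receptor gene of the chromosome, with 96.5% under H3K27me3 in female cells, 0% after Setdb1 depletion and 100% in male cells. In male cells 96.5% of Vmn1r55 also lay under H3K9me3, a mark it lacked in the other lists. The remaining H3K27me3 was partial, over Vmn1r86 (22% in female and Setdb1-depleted cells, 0% in male cells), Vmn1r173 (41.7% in female cells) and Vmn2r44 (19.4% in female cells). According to the methods of the study the H3K9me3 antibody has a slight affinity for H3K27me3. The part of this affinity in the H3K9me3 calls, including those at genes with both marks, was not tested. Over the whole of the clusters 25.4% of bases lay under H3K9me3 and 0.7% under H3K27me3 in female cells.

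Between Setdb1-depleted and female cells, the H3K9me3 cover of some single genes differed by their whole length, in both directions. The Vmn1r share was 2.67 percentage points higher and the Vmn2r share 2.66 points lower, beside a difference of -0.605 points for the other genes of chromosome 7. These sets start from unlike shares in female cells. As a ratio to the female share, Vmn1r had 1.14, Vmn2r 0.931 and the other genes 0.807. For neither family did the direction hold under every setting. The Vmn1r difference ranged from -1.49 points with peaks of at least 20 kb alone to 3.6 points with equal numbers of widest peaks, and the Vmn2r difference from -6.03 points with pseudogenes added to 0.00266 points over the genes with at least 50% unique sequence. Of the Vmn1r genes 11 were lower, 8 higher and 8 equal with some cover. The Vmn2r genes counted 15 lower, 13 higher and 9 equal, and the other genes of the chromosome 102 lower, 65 higher and 38 equal. The covered share was lower by 50% of the gene or more in 3 Vmn1r (2.91%) and 9 Vmn2r genes (17.6%), beside 2.72% of all chromosome 7 genes. As a share of the whole family, the Vmn1r value is thus close to that of all genes. However, only genes at 50% or more in female cells can fall that far. Of those genes 3 of 15 Vmn1r and 9 of 22 Vmn2r genes did, beside 55 of 113 over the whole chromosome. A rise of that size was present in 6 Vmn1r (5.83%) and 4 Vmn2r genes (7.84%), beside 1.93% of all genes. From female to Setdb1-depleted cells, Vmn1r77 and Vmn1r64 went from 100% to 0%, Vmn1r168 from 100% to 31.7%, Vmn2r66 from 100% to 0%, Vmn2r65 from 84.5% to 0% and Vmn2r32 from 100% to 16.2%. In the other direction Vmn1r180 and Vmn1r65 went from 0% to 100%, Vmn1r74 from 0% to 94.7%, Vmn2r70 from 0% to 100%, Vmn2r75 from 0% to 82.2% and Vmn2r41 from 0% to 60.7%. H3K9me3 peaks over receptor genes were at least 10 kb wide, whereas the median Vmn1r gene has 3.03 kb. A difference over the whole of a short gene can thus be 1 peak gained or lost. Vmn1r64, of 963 bases, lay under 1 peak of 10 kb in female cells. Of the genes at 50% or more in female cells, 11 of 15 Vmn1r (73.3%) and 13 of 22 Vmn2r (59.1%) were also at 50% or more in Setdb1-depleted cells, which is 64.7% and 61.9% of the genes of the depleted list. Over all chromosome 7 genes, 54 were shared, or 47.8% of the female and 54% of the depleted genes.

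In male cells the Vmn2r genes had less H3K9me3 than in female cells. The Vmn2r share was 14.7 percentage points below that of female cells, whereas the Vmn1r share was 4.44 points above it and the other genes differed by 0.0423 points. The ratios to the female share were 0.618 for Vmn2r, 1.24 for Vmn1r and 1.01 for the other genes. As a mean over genes the Vmn1r difference was -0.0447 points, whereas the Vmn2r difference lay between -10.2 and -16.9 points under all alternatives run. By gene, 21 Vmn2r genes were lower, 6 higher and 7 equal with some cover, and 12 Vmn1r genes were lower, 11 higher and 5 equal, beside 97 lower, 73 higher and 40 equal among the other genes of the chromosome. The covered share was lower by 50% of the gene or more in 6 Vmn1r (5.83%) and 8 Vmn2r genes (15.7%), beside 2.92% of all chromosome 7 genes. Such a fall is possible only for genes at 50% or more in female cells. Of those genes it was present in 6 of 15 Vmn1r and 8 of 22 Vmn2r genes, beside 59 of 113 over the whole chromosome. It was higher by as much in 6 Vmn1r (5.83%) and 0 Vmn2r genes (0%), beside 1.53% of all genes. Of the 13 Vmn2r genes at 50% or more in male cells, 12 were so in female cells too (92.3% of the male and 54.5% of the female genes), the exception being Vmn2r59. For the Vmn1r genes 9 were shared, or 60% of the female and 56.3% of the male genes, and over all chromosome 7 genes 46 were shared, or 40.7% and 56.1%. Both comparisons use the same female list. The genes that moved in one do not always move in the other: Vmn1r180 and Vmn1r65 were at 100% in male cells as in depleted ones, Vmn1r77 and Vmn1r168 were at 100% in male as in female cells, and Vmn2r70, Vmn2r75 and Vmn2r41 were at 0% in male as in female cells.

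The cover differed strongly between clusters. Cluster 2 (chr7:7231327-9223653) holds 17 Vmn2r genes and no Vmn1r gene. H3K9me3 covered 58.3% of its bases in female, 52.1% after Setdb1 depletion and 43.6% in male cells. It had 16, 7 and 10 H3K9me2 peaks of the 22, 9 and 15 in all clusters. However, only 27.3% of the 100-base windows of cluster 2 are found once in the genome, beside 89.5% for chromosome 7. Its female H3K9me3 peaks over receptor genes had from 1.5 (Vmn2r35) to 14.6 (Vmn2r44 and Vmn2r45) scaled H3 reads per kb in female cells. Cluster 8 (chr7:41395945-42933822, 7 Vmn2r genes) had 41.2%, 33.1% and 29.8%, and cluster 7 (chr7:26260334-26618464, Vmn1r184 and Vmn1r185) had 39%, 54.4% and 39%. Cluster 1 (chr7:5129291-6011010, 11 Vmn1r genes and 1 Vmn2r gene) had 30.1%, 25.6% and 18.8%. Clusters 9 and 10, both of Vmn2r genes, had less than cluster 2, with 20.2%, 22.9% and 11.1% in cluster 9 (chr7:84935565-86246308, 12 genes) and 12%, 16% and 6% in cluster 10 (chr7:86795027-87044941, Vmn2r77 to Vmn2r79). Cluster 3 (chr7:9747811-10754364) had 21.9%, 10.9% and 6.46%, whereas its 13 receptor genes themselves had only 5.98%, 5.59% and 0.642%. Cluster 4 (chr7:11664479-13220657, 18 Vmn1r and 4 Vmn2r genes) had 17.1%, 12.2% and 17.7%. Cluster 5 is Vmn1r90 alone (chr7:14555474-14563506), with no peak.

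The largest cluster, cluster 6 (chr7:20099680-24063554), holds 65 Vmn1r genes and falls into a bare and a marked stretch. From Vmn1r91 to Vmn1r166 (chr7:20099680-23251682) none of its 49 genes had a peak of any target, and H3K9me3 covered 0.793%, 3.17% and 1.9% of the stretch. From Vmn1r167 to Vmn1r183, the 16 genes past it, H3K9me3 covered 32.6%, 45% and 40.6%, and 7, 8 and 8 genes were at 50% or more. With Vmn1r89 of cluster 4 and Vmn1r90 of cluster 5, the bare genes form a run of 51. They have a median length of 0.924 kb, about that of a V1R coding region alone.

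The mark was not confined to receptor genes within the clusters. The 80 other protein-coding genes inside them were covered by H3K9me3 over 24.3%, 32.3% and 24.5% of their length, 7.75, 12.8 and 7.73 times the share of the other genes of chromosome 7, among which they are counted. A few long genes carry these shares, since the mean over the 80 genes was 8.6%, 12.6% and 11.5% beside 4.18%, 3.48% and 3.35% for the other genes, and 8, 9 and 9 of them reached 50%. The clusters as a whole were covered by 25.4%, 23.9% and 19.6% compared with 5.83%, 4.85% and 5.8% of the rest of the chromosome, and the 500 kb on either side of each cluster by 16%, 14.7% and 14.3%. The receptor genes had more cover than the DNA between genes in 7 of the 9 clusters with such DNA in female cells, 6 after Setdb1 depletion and 6 in male cells. In cluster 6 the genes had 21.1%, 25.5% and 31% and the DNA between them 5.76%, 10.56% and 8.83%, whereas in cluster 3 the order was the opposite in all 3 lists. The cluster 6 values pool its bare stretch of 3152 kb with its marked stretch of 812 kb. In the marked stretch H3K9me3 covered 32.6%, 45% and 40.6% of all bases. Genes and the DNA between them were not compared within either stretch. That DNA is all sequence outside protein-coding genes, so it includes any receptor pseudogenes there.

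**Figure D3:**
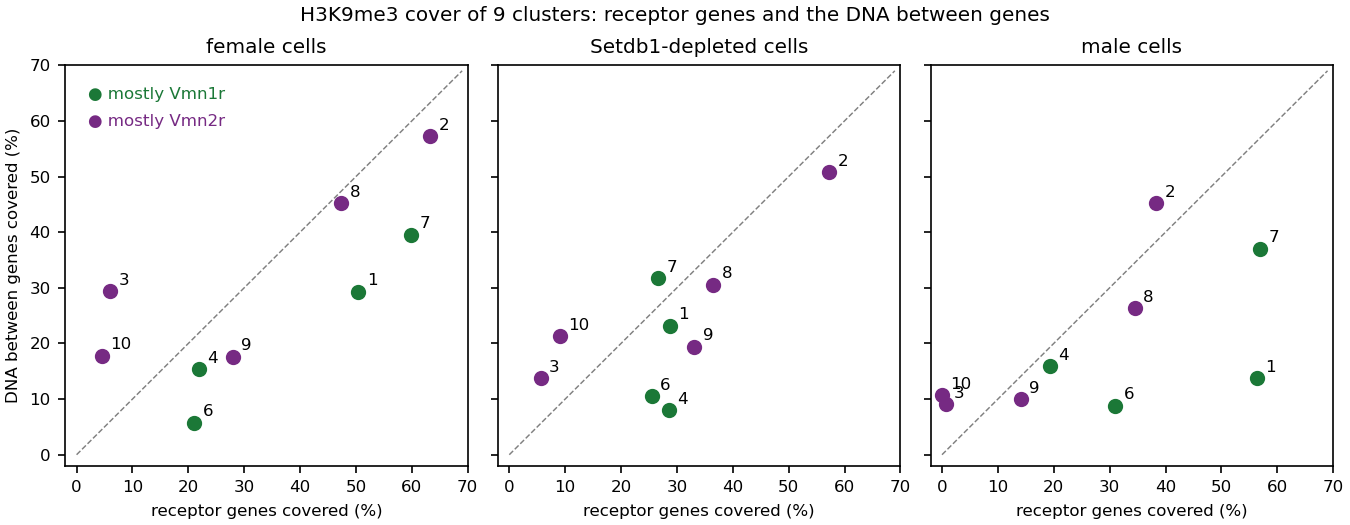
H3K9me3 covered share of the receptor genes of a cluster (horizontal axis, %) and of its DNA outside all protein-coding genes (vertical axis, %), 1 panel per kind of cell and 1 numbered point per cluster; the dashed line marks equal shares. Clusters 3 and 10 lie above the line in each panel, with receptor genes at 9.08% or less, and cluster 2 has the highest value on both axes in female cells (63.3% and 57.2%).

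By summed length, each receptor family of chromosome 7 had a higher H3K9me3 share in all 3 lists than the same family on other autosomes. The same held against the olfactory receptor (Olfr) and Zfp genes of chromosome 7. Olfr genes, which encode odorant receptors and also lie in tandem clusters, had 13.7%, 7.05% and 7.43% (244 genes), and Zfp genes, many of which encode KRAB zinc finger repressors, had 4.91%, 2.89% and 10.58% (92 genes). The 105 Vmn1r genes of other autosomes had 12%, 6.49% and 7.85%, and the 70 Vmn2r genes there 17.6%, 26.7% and 20.9%. A lower share in male than in female cells, as in the Vmn2r genes of chromosome 7, was also present in the Olfr genes and in the Vmn1r genes of other autosomes, and not in the Vmn2r genes of other autosomes. Among the 12 Zfp genes inside the clusters the H3K9me3 share was 0.759% in female, 10.56% after Setdb1 depletion and 37.7% in male cells.

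H3K9me3 touched 2, 2 and 1 of 26 genes of the vomeronasal neuron outside both families. It was similarly rare over all autosomal protein-coding genes, at 7.73%, 5.12% and 7.31%. The 26 genes were chosen with earlier results of these data known. H3K9me3 covered at least 50% of 2 of them in female cells (the formyl peptide receptors Fpr-rs3 and Fpr-rs7), of 1 in Setdb1-depleted cells (Fpr-rs6) and of 0 in male cells. Over all autosomal protein-coding genes these shares were 2.85%, 2.53% and 2.88%. Fpr3 had 0%, 23.9% and 29.8%. H3K27me3 covered at least 50% of 4, 5 and 4 of the 26 genes, beside 13.8%, 11.9% and 12.8% of all autosomal protein-coding genes. Those genes included Gng13 and Kirrel2 at 100% and Tfap2e, a transcription factor of basal vomeronasal neurons, at 80.3% in every list. The median over the list was 0% for each mark. On chromosome 7, Trpc2, the cation channel of vomeronasal transduction (chr7:102083116-102096396), and Omp, the olfactory marker protein gene (chr7:98143359-98145502), had no peak of any target, and neither did Gng8, a G protein subunit gene of that chromosome, nor Gnai2 of chromosome 9. Of 10 fibroblast genes such as Col1a1 and Vim none had a histone peak in any list and 1 had a Setdb1 peak in male cells.

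Sequence uniqueness moved with these values. Reads were single and 100 bases long, so the share of 100-base windows of a gene found once in the genome, on either strand, gives how much of it such reads can be placed on. The median was 72.3% for Vmn1r, 80.9% for Vmn2r and 99.6% for the other genes of chromosome 7, and it went from 0% to 100% in both families. In the bare stretch of cluster 6 only 10.33% of windows were unique and the median gene had 8.54%, while past it 84.2% of windows were unique and the median gene had 87.7%. The 26 Vmn1r genes that reached 50% H3K9me3 in at least 1 list had a median of 93.7% and a lowest value of 71.3% (Vmn1r173), and the 70 with no H3K9me3 in any list had a median of 16.7%. In the Vmn2r family the order was the opposite, with a median of 53.5% for the 30 genes that reached 50% in a list and 97.5% for the 12 genes with no H3K9me3. Low uniqueness did not go with every bare gene. The longest Vmn1r genes without a peak were Vmn1r68 (51088 bases, 99.8% unique), Vmn1r73 (31816 bases, 99.7%) and Vmn1r139 (28851 bases, 0%), and the longest such Vmn2r genes Vmn2r57 (52752 bases, 80.9%), Vmn2r79 (48827 bases, 95.9%) and Vmn2r48 (25962 bases, 29.4%). How reads with several equally good positions were treated is not given in the sources used here, and the part of this in the peak calls was not tested.

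Genes with at least 50% of windows unique give values that rest less on such reads. Over the 58 such Vmn1r genes H3K9me3 covered 21.1%, 24.1% and 26.1%, and over the 31 such Vmn2r genes 32.4%, 32.4% and 22.3%, compared with 2.57%, 2.12% and 2.61% for the 1805 other genes of chromosome 7. The 45 Vmn1r genes below 50% had no peak of any mark in any list, whereas the 20 Vmn2r genes below 50% had 52.6%, 43.8% and 27.4% under H3K9me3. The 64 other genes of the chromosome below 50% had 53.4%, 39.4% and 54.3%, carried by few genes, since 8, 11 and 10 of the 64 had any H3K9me3, whereas 13, 12 and 8 of the 20 Vmn2r genes did. Total H3 reads show the depth behind the calls. At H3K9me3 peaks in the clusters that were at least 50% unique, the H3 pool of the same cells had a median of 17.4, 17.9 and 18.3 scaled reads per kb in the female, depleted and male lists, and at those below 50% it had 6.33, 5.03 and 8.01. Of the 116, 120 and 99 H3K9me3 peaks in the clusters, 37, 41 and 28 were of the second kind. The Vmn2r34 promoter printed above has no unique window, each occurring 2 or 3 times in the genome, and lay wholly within an H3K9me3 peak in all 3 lists, and the Vmn1r95 promoter, whose windows occur 2 to 13 times, lay outside every one.

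**Figure D4:**
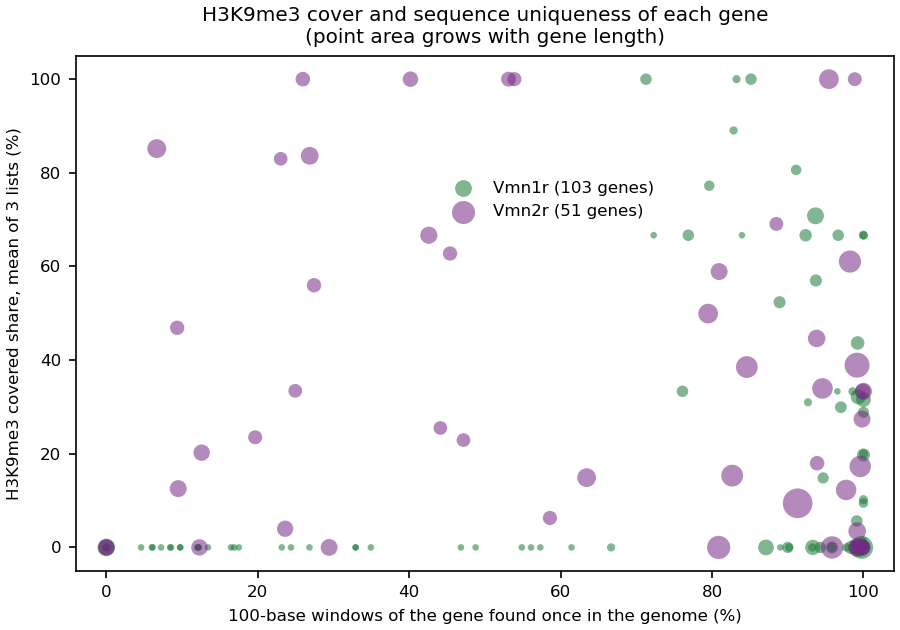
Percent of 100-base windows found once in the genome (horizontal axis) and H3K9me3 covered share averaged over the 3 lists (vertical axis, %) for each of the 103 Vmn1r and 51 Vmn2r genes, with point area growing with gene length. Every Vmn1r gene less unique than Vmn1r173 (71.3%) lies at 0%, whereas Vmn2r genes with few unique windows reach 100%.

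The density of Setdb1 peaks in the clusters was within counting error of that in the rest of chromosome 7. Of the chromosome 7 peaks, the clusters held 6 of 66 (female), 2 of 18 (Setdb1-depleted) and 15 of 174 (male). Per Mb this came to 0.468 (exact Poisson 95% interval 0.172 to 1.02, counting error only) in female cells beside 0.465 (0.355 to 0.599) in the rest of the chromosome. The values were 0.156 (0.0189 to 0.564) beside 0.124 (0.0709 to 0.20136) in the depleted list and 1.17 (0.655 to 1.93) beside 1.23 (1.05 to 1.44) in male cells. Each interval of the clusters holds the value of the rest. With 6, 2 and 15 peaks only large differences would have been detectable, above all in the depleted list. These densities are per sequenced Mb and were not corrected for how much of the sequence is unique. In clusters 2 and 6, 27.3% and 25.6% of 100-base windows are found once in the genome, beside 89.5% for chromosome 7. The other clusters range from 66.7% to 99.9%. At a −log10 p of 5 or more the clusters held 1, 2 and 7 peaks, or 0.078 (0.00198 to 0.435), 0.156 (0.0189 to 0.564) and 0.546 (0.22 to 1.13) per Mb, beside 0.186, 0.0697 and 0.573 in the rest of the chromosome. After down-sampling 18134299, 14405821 and 12320583 reads entered the calls.

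**Figure D5:**
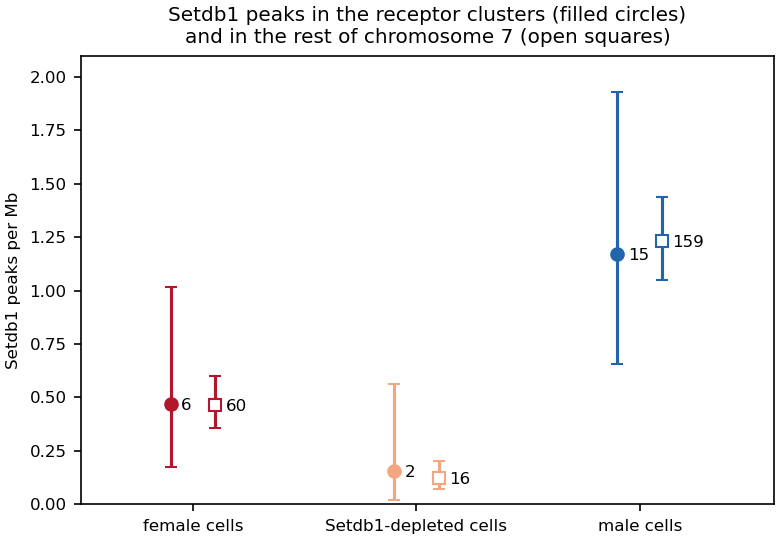
Setdb1 peaks per Mb (vertical axis) in the receptor clusters (filled circles) and in the rest of chromosome 7 (open squares) for the 3 kinds of cells, with exact Poisson 95% intervals and the number of peaks beside each point. The intervals of clusters and rest overlap in each kind of cell, and male cells have the most peaks in both (15 and 159).

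A Setdb1 peak was present in 2 receptor genes, 1 of 103 Vmn1r and 1 of 51 Vmn2r genes, both in male cells, beside 3.71% of all chromosome 7 genes. No receptor gene had one in female cells (1.33% of all genes) or in Setdb1-depleted cells (0.494%). Such counts depend on gene length, with a median of 3.03 kb for Vmn1r, 24.7 kb for Vmn2r and 11.3 kb for all genes. By summed length, male Setdb1 peaks covered 0.0221% of Vmn1r, 0.00976% of Vmn2r and 0.0184% of the other genes of chromosome 7. With 1 peak in each family, these shares cannot be set apart. The peak in Vmn1r69 had a summit pileup of 5 reads, a fold enrichment of 3 and a −log10 p of 3.23, and that in Vmn2r72 had 4 reads, 3.04 and 3.26. Both lay outside annotated exons and had −log10 q values of 0, and all windows over their summits were unique. Neither gene had H3K9me3 in any list, and Vmn1r69 had 28.8% under H3K9me2 in male cells. Of the cluster peaks, 2 of 6 in female, 1 of 2 in Setdb1-depleted and 3 of 15 in male cells had their summit in an H3K9me3 peak of the same cells. H3K9me3 covered 25.4%, 23.9% and 19.6% of all cluster bases in these lists, and the counts are too few to set apart from those shares. A q-value under 0.05 was reached by 0, 1 and 5 of the cluster peaks. The strongest was a male peak with −log10 p of 9.2, in the gene Nlrp4e, 74813 bases from Vmn1r166, with no unique window over its summit. In male cells 5 cluster peaks lay over other protein-coding genes, 3 of them over Zfp110, Zfp141 and Zfp976, the last in an exon. In female cells every window over the summit was unique for 1 of the 6 peaks, compared with 1 of 2 and 13 of 15 in the other lists, and the female peak printed above, within H3K9me3 near Vmn2r34, has windows that occur up to 12 times in the genome.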

How the data were processed

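ChIP-seq was performed on MEFs, the cells named by the labels, although the extraction notes speak of neural stem cells. Reads of 100 bases had been aligned with Bowtie2 to mm10 with strain variants masked, per the methods of the study. The authors called the histone peaks on pooled libraries against total H3, and which H3 pool served each list is not stated. The positions in the deposited histone lists lie in steps of 5 kb. The deposited histone lists hold log2 values and scaled read counts, that is a coverage signal, and of these only the peak positions and the H3 signal were used. For Setdb1 the authors ran MACS2 with a p cutoff of 0.001 on down-sampled reads against whole cell extract, and the deposited lists give pileup (signal), fold enrichment (a ratio), the −log10 p-value and the −log10 q-value of each peak.

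Covered shares are the bases of a gene within peaks, over the gene or over the summed length of a set. Genes came from GENCODE M21 on GRCm38.p6, promoters from RefSeq, and 100-base windows were taken every 10 bases. Windows were counted with numba 0.67.0 under Python 3.11.15, tables were handled with pandas 2.3.3 and numpy 2.4.6, intervals came from scipy 1.17.1, promoter identity from Biopython 1.88 and plots from matplotlib 3.10.9, and the covered-share and window steps were tested on simulated data. Genes named singly were, per family, those with the highest mean H3K9me3, the largest differences in either direction, the longest without a peak, those with the most H3K9me2 or H3K27me3, those under a Setdb1 peak and the ends of each cluster, with Trpc2 and Omp, and any other gene was named after its values were seen. The genes, lists and comparisons were chosen with earlier results of these data known.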

Additional observations from a re-analysis of the deposited data

How the results depend on the processing

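Of 126 covered shares recomputed under alternatives, 7 left the Wilson 95% interval of the value reported. That interval counts genes of 1 pooled list as if independent and is wide, so the shares inside it are not thereby shown to be stable. With peaks of at least 20 kb alone, Vmn1r H3K9me3 in Setdb1-depleted cells was 12.7%, Vmn1r H3K27me3 there 0% and Vmn2r H3K27me3 in female cells 0%, the last also 0% when each list was cut to the same number of widest peaks. As a mean over genes, Vmn1r H3K9me3 in male cells was 14.8%, and Vmn1r H3K27me3 was 1.56% in female and 0.971% in male cells. Of 28 differences from female cells 25 kept their sign and 3 did not. The Vmn1r H3K9me3 difference of Setdb1-depleted cells became -1.49 points with peaks of at least 20 kb, that of Vmn2r genes 0.00266 points over genes with at least 50% unique windows (an alternative chosen after seeing the data), and the Vmn1r difference of male cells -0.0447 points as a mean over genes. Setdb1 peaks in the clusters numbered 1 in female and 7 in male cells at a −log10 p of 5 or more, and 1 in female and 1 in depleted cells with every summit window unique (also chosen after seeing the data). No paired analysis was possible because each list pools its replicates, and no replicate could be left out for the same reason. The Setdb1 densities rest on 2 to 15 peaks in the clusters.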
